A study of Sus scrofa with 8 samples.

Results

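Muscle keeps its ATP supply steady with a small set of abundant enzymes, and 5 of their genes were considered here: CKM, CKMT2, AK1, AMPD1 and the oxygen store myoglobin (MB). Probe sets were taken where the array's annotation gave 1 of these symbols and no other. This gave 3 probe sets among 23999, with 1 each for CKM, CKMT2 and AMPD1, out of 6765 genes named on the array. A probe set annotated jointly to AK1 and ACTG1 could not be assigned to either gene and was left out, and MB was not analysed here. The accounts below are therefore of the creatine kinases and of AMP deaminase.

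Creatine kinase moves a phosphate between ATP and creatine, so that a contracting fibre can refill ATP within moments. CKM is its cytosolic form in muscle, partly bound to the M-band of the sarcomere. CKMT2 is its sarcomeric mitochondrial form and sits between the mitochondrial membranes, where it charges creatine with newly made ATP. AMPD1 is the muscle isoform of AMP deaminase, which turns AMP into IMP when ATP use outruns supply and so opens the purine nucleotide cycle. CKM and AMPD1 are known as abundant products of fast fibres, and CKMT2 follows the mitochondrial content of a fibre.

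RNA of the biceps femoris, in the hind limb, of female piglets was hybridised to an Affymetrix porcine array. There were 4 corticosteroid arrays, from piglets given bolus hydrocortisone over 5 days, and 4 control arrays, from piglets given sedation and ventilation for 5 days. All animals received isoflurane with morphine and ketamine, tracheotomy and mechanical ventilation, fluids, glucose, streptomycin and benzylpenicillin, and all samples carry the label acute quadriplegic myopathy, the limb weakness of intensive care. The protocol of the control samples also names an Escherichia coli endotoxin infusion of 36 µg/kg/h for 1 h, which their source label omits, and the series text names a pancuronium infusion without saying which animals had it. Mean body weight is given as 26.4 kg for the corticosteroid samples and 25.5 kg for the controls, with no age. Endotoxin, blocker and batch effects cannot be told apart from the corticosteroid effect. The protocol text gives 4 piglets for the control samples and 8 for the corticosteroid samples, with 4 arrays in each group. Whether each array came from its own animal is not stated, and the spread behind the p-values may then be technical.

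Before any comparison, the corticosteroid values were re-assigned to the probe IDs in the order obtained when full stops in the IDs are ignored. This order puts 39.1% of probe sets at another row, including those of CKM and CKMT2 but not that of AMPD1. In the rows as deposited the corticosteroid mean log2 level would be 7.67 for CKM and 8.70 for CKMT2. Across the moved probe sets, the correlation between corticosteroid and control means was 0.989 after re-assignment and 0.0997 as deposited. Probe sets are not independent replicates, and the order was found from the values, so every CKM and CKMT2 result rests on it. Control replicate 2 stood apart on the first principal component (36.3% of variance), at 62.9 against -42.2 to 27.3 for the other arrays, and values without it are given where they turn the sign of a named gene's difference or move it by over 1.5 times. Skeletal muscle markers were near the top of the range, with a mean log2 level of 12.97 over 5 of 6 listed genes and no separation of the groups (exact two-sided permutation p = 0.486).

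CKMT2 (NCBI gene 733602) had the clearest group difference of the 3 genes. Its log2 level was 10.06, 10.68, 10.29 and 11.11 on corticosteroid replicates 1 to 4, against 9.80, 9.03, 9.70 and 9.88 on control replicates 1 to 4. All corticosteroid arrays lay above all control arrays, the highest control reaching within 0.18 of the lowest corticosteroid array. Corticosteroid replicate 4 was the highest of the 8 arrays and control replicate 2 the lowest. The mean log2 level was 10.53 ± 0.46 with corticosteroid and 9.60 ± 0.39 in controls (SD, n = 4 each). The log2 difference was 0.93 (SE 0.28, 95% interval 0.32 to 1.55), a 1.91-fold higher signal with an interval of 1.24 to 2.93.

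The CKMT2 difference did not pass the test over the whole array. Its adjusted p was 0.479 in limma with Benjamini-Hochberg adjustment over 14361 probe sets, of which 0 (0%) were called at 0.05. The unadjusted limma p was 0.00739, the 217th smallest of those tested, and 9.49% of probe sets had an unadjusted p under 0.05. The difference was larger in size than that of 97.3% of the probe sets tested. An exact two-sided permutation test of CKMT2 alone gave p = 0.0286, the smallest that 4 arrays against 4 allow. Complete separation with corticosteroid above control was seen for 3.05% of all probe sets tested. The difference was 0.74 without control replicate 2, 0.74 without corticosteroid replicate 4 and 0.55 without both.

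**Figure D1:**
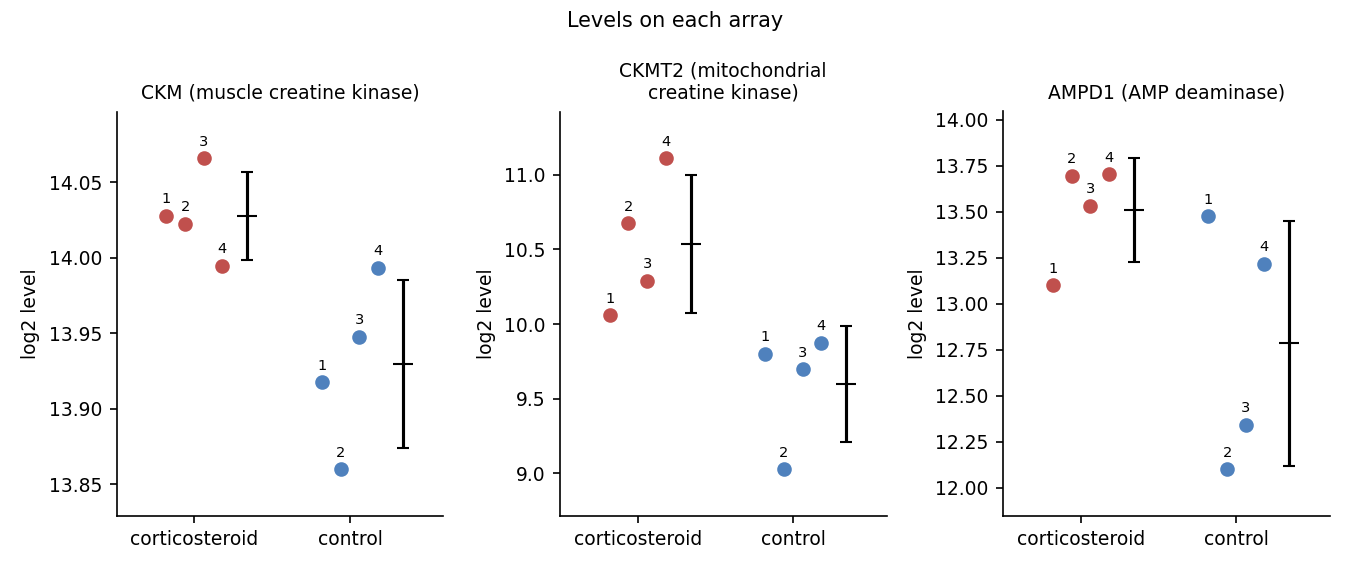
Log2 level of CKM, CKMT2 and AMPD1 on each array (points, numbered by replicate), with the mean and SD of 4 arrays in black; each panel has its own axis, which does not start at 0. All corticosteroid arrays lie above all controls for CKMT2 and, by 0.0013, for CKM, while the AMPD1 groups overlap.

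AMPD1 (NCBI gene 100101472) was higher on average with corticosteroid, with a wide control group. Its row is the same in both orders, so its log2 levels do not depend on the re-assignment. Its adjusted limma p and its place among other probe sets do. That p was 0.0883 with the rows as deposited. The log2 level was 13.10, 13.70, 13.53 and 13.71 on corticosteroid replicates 1 to 4, against 13.48, 12.10, 12.34 and 13.22 on control replicates 1 to 4. Corticosteroid replicates 2, 3 and 4 stood above every control, but corticosteroid replicate 1 lay below control replicates 1 and 4. The low control values came from replicates 2 and 3. The mean was 13.51 ± 0.28 with corticosteroid and 12.79 ± 0.67 in controls (SD, n = 4 each).

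The AMPD1 log2 difference was 0.72 (SE 0.30, 95% interval 0.06 to 1.39), or 1.65-fold. Its adjusted p in limma was 0.50, its unadjusted limma p was 0.0363, and the exact two-sided permutation p was 0.114. The difference exceeded in size that of 93.7% of probe sets tested. It was 0.50 without control replicate 2, 0.58 without control replicate 3, 0.95 without control replicate 1 and 0.43 without control replicate 2 and corticosteroid replicate 4. Among 115 probe sets within 0.5 log2 units of its level, itself included, 99.1% had a within-group SD no larger than that of AMPD1 (0.51, against a median of 0.13).

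CKM (NCBI gene 397264) was nearly level across the arrays. Its log2 level was 14.03, 14.02, 14.07 and 13.99 on corticosteroid replicates 1 to 4, against 13.92, 13.86, 13.95 and 13.99 on control replicates 1 to 4. All corticosteroid arrays lay above all control arrays, as for 3.05% of all probe sets tested. The lowest corticosteroid array (replicate 4) and the highest control array (replicate 4) were only 0.0013 apart. All 8 values lay within 0.21 log2 units. The mean was 14.03 ± 0.03 with corticosteroid and 13.93 ± 0.06 in controls (SD, n = 4 each), a log2 difference of 0.10 (SE 0.07, 95% interval -0.06 to 0.25). As a fold this is 1.07, with an interval of 0.963 to 1.19.

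The 2 tests of CKM gave different sides of 0.05. The exact two-sided permutation p was 0.0286, the smallest that 4 arrays against 4 allow. The unadjusted limma p was 0.183 (adjusted p = 0.632). The limma SE draws on the spread of other probe sets of similar level. Of the 33 probe sets within 0.5 log2 units of CKM, itself included, 9.09% had a within-group SD no larger than its 0.045. The median SD of these 33 was 0.12. The size of its difference exceeded that of 26.5% of all probe sets tested. Without control replicate 2 the difference was 0.07.

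CKM lay close to the top of the measured range. It was the 9th to 11th brightest of 23999 probe sets on corticosteroid arrays and the 12th to 17th on control arrays. Its log2 level was 0.492 to 0.556 below the highest value of the array with corticosteroid and 0.505 to 0.725 below it in controls. No more than 30 to 42 probe sets per array came within 1 log2 unit of the highest value. AMPD1 was 0.781 to 1.46 below it on corticosteroid arrays and 1.08 to 2.48 below it on control arrays. CKMT2 was well inside the range, 3.38 to 4.50 below the highest value with corticosteroid and 4.62 to 5.56 below it in controls.

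The median spread was smaller near the top of the range, although single probe sets there, AMPD1 among them, varied more. The median within-group SD was 0.12 over the 96 probe sets with a mean log2 level above 13, and 0.34 over the 1836 between 9 and 11. The median size of the group difference was 0.11 in the bright set and 0.23 in the other. The sources used here do not give the scanner's limit, and the part of saturation in the small CKM difference was not tested. The AMPD1 probe set, at a mean of 13.15, had a within-group SD of 0.51.

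**Figure D2:**
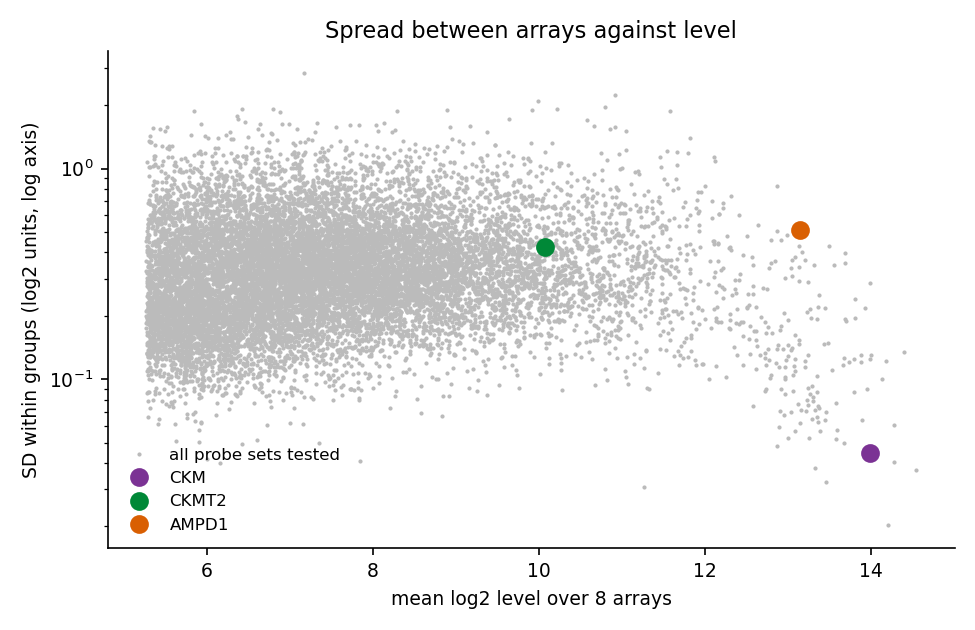
Within-group SD (log2 units, log axis) against mean log2 level over 8 arrays for the 14361 probe sets tested, with CKM, CKMT2 and AMPD1 marked. Most probe sets above a level of about 13 have a small spread, and there CKM (SD 0.045) sits among the least variable and AMPD1 (SD 0.51) among the most variable.

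Differences between the genes in their response were tested within arrays, over 3 pairs. The log2 level of CKMT2 minus that of CKM averaged -3.49 ± 0.48 with corticosteroid and -4.33 ± 0.34 in controls (SD, n = 4 each), and the groups did not overlap. CKMT2 thus differed between groups by 0.83 more than CKM (exact two-sided permutation p = 0.0286, adjusted over the 3 pairs 0.0857). AMPD1 differed by 0.63 more than CKM (exact two-sided permutation p = 0.171, adjusted 0.257). CKMT2 differed by 0.21 more than AMPD1 (exact two-sided permutation p = 0.371, adjusted 0.371). No pair passed after adjustment. The pairs with CKM compare genes at different distances from the top of the range.

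CKMT2 and AMPD1 ordered the arrays alike. Over the 8 arrays Pearson's r was 0.84 (exact permutation p = 0.00682, adjusted over 3 pairs 0.0205) and Spearman's rho was 0.905 (exact permutation p = 0.00456, adjusted 0.0137). Without the 2 arrays farthest from the median of CKMT2 r was 0.70. For CKMT2 and CKM r was 0.71 (exact permutation p = 0.0498, adjusted 0.0643) and rho 0.762 (exact permutation p = 0.0368, adjusted 0.0551), with r at 0.71 without the 2 farthest arrays. For AMPD1 and CKM r was 0.68 (exact permutation p = 0.0643, adjusted 0.0643) and rho 0.524 (exact permutation p = 0.197, adjusted 0.197). That relation rests on 2 arrays, since r was -0.01 without them. These correlations pool both groups, and their permutations shuffle all 8 arrays without regard to group. A group difference shared by both genes therefore enters r and its p. So does variation common to many genes, such as the first principal component (36.3% of variance), on which control replicate 2 stood apart. That array was lowest for CKMT2, AMPD1 and CKM. How often other pairs of genes correlate this strongly was not tested. For a value within a group 4 arrays are too few.

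Slow-fibre markers had lower means with corticosteroid and fast-fibre markers higher ones, and none passed after adjustment over all probe sets (0 of 14, limma). All 7 slow-fibre markers had lower means, with a median log2 difference of -1.07, where the median over all probe sets tested was 0.02. Of these, 6 had an unadjusted limma p under 0.05 (4.71% of all probe sets tested were so and lower), and 4 lay below the controls on every corticosteroid array, as did 2.51% of all probe sets tested. TNNT1, the slow-fibre troponin T, had a mean log2 level of 9.41 ± 0.43 with corticosteroid and 11.19 ± 0.85 in controls (SD, n = 4 each), a log2 difference of -1.78. MYH7, the slow myosin heavy chain, had 11.09 ± 0.30 with corticosteroid and 12.27 ± 0.69 in controls (SD, n = 4 each), a difference of -1.17. With each array left out in turn all 7 stayed lower, with 4 to 6 at an unadjusted limma p under 0.05.

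The 7 measured fast-fibre markers of 9 listed all had higher means, with a median log2 difference of 0.43. Of these, 2 had an unadjusted limma p under 0.05 (4.78% of all probe sets tested were so and higher). They were the fast troponins TNNT3 (0.66) and TNNC2 (0.43). Both lay above the controls on every corticosteroid array, as did 3.05% of all probe sets tested. Without control replicate 2 the median was 0.25, that of TNNC2, and 6 of 7 were higher. The fast-fibre markers had a mean log2 level of 13.35 over the 8 arrays, against 11.27 for the slow-fibre markers. With corticosteroid, the fast-fibre markers TNNC2 (14.20) and MYLPF (14.06) averaged above CKM (14.03). The lists thus lay at different distances from the top of the range. The part of saturation in their differences was not tested. Each centred on its mean over the arrays, the fast-fibre markers averaged 0.09 to 0.37 on corticosteroid arrays and -0.92 to 0.17 on controls (exact two-sided permutation p = 0.0857). The lowest fast-fibre score was that of control replicate 2, which was also lowest for CKMT2, AMPD1 and CKM. The slow-fibre markers averaged -0.90 to -0.05 on corticosteroid arrays and -0.24 to 1.24 on controls (exact two-sided permutation p = 0.0571), with the highest score on control replicate 3. Corticosteroid replicate 4 had the lowest slow-fibre score and the highest CKMT2 level. In whole muscle, fewer fibres of a type and less RNA per fibre cannot be told apart. The part of fibre type in the CKMT2 and AMPD1 differences was not tested.

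**Figure D3:**
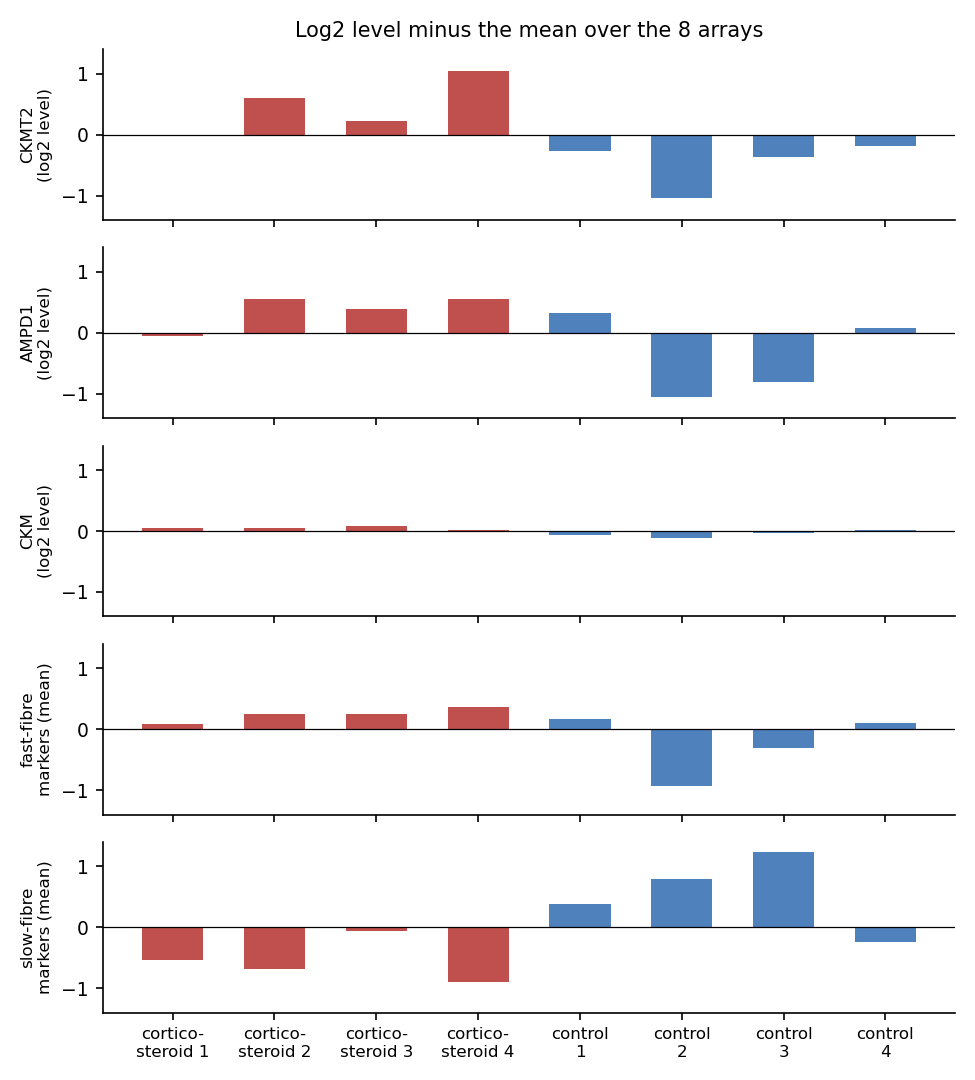
Log2 level minus the mean over the 8 arrays for CKMT2, AMPD1 and CKM, and the mean of the same quantity over 7 fast-fibre and 7 slow-fibre markers, 1 bar per array (corticosteroid red, control blue). Control replicate 2 is lowest for the 3 genes and the fast-fibre markers, while slow-fibre markers are highest on control replicate 3.

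Other cell types were followed with short marker lists. Macrophage markers (4 of 7 measured) scored -0.86 to 0.08 with corticosteroid and -0.27 to 1.24 in controls, and fibroblast markers (4 of 6) -0.35 to 0.31 and -0.34 to 0.75. Endothelial markers (5 of 5) scored -0.16 to 0.03 with corticosteroid and -0.14 to 0.25 in controls, and smooth muscle markers (3 of 4) -0.31 to 0.26 and -0.74 to 0.80. Adipocyte markers (3 of 5) scored -1.04 to 1.19 with corticosteroid and -0.94 to 0.54 in controls. Neutrophil markers (3 of 3) were dim, with a mean log2 level of 4.27, and red cell markers (2 of 7) scored -0.70 to -0.04 with corticosteroid and -0.18 to 1.42 in controls. The groups overlapped for each of these lists, and their part in the results was not tested.

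Genes around these enzymes were split between higher and lower means. Of 59 symbols listed for the phosphagen system, adenylate kinases, purine nucleotide cycle, purine salvage, AMP-activated kinase, mitochondrial ATP exchange and other globins, 35 had a probe set and 32 were tested. Means were higher with corticosteroid for 16 and lower for 16 (52.8% of all probe sets tested had higher means), with a median log2 difference of 0.02, where that over all probe sets tested was 0.02. Without control replicate 2 the means were higher for 19 and lower for 13, and 7 had turned sign. None passed after adjustment over all probe sets (0 of 32, limma). At an unadjusted limma p under 0.05 there were 3 higher and 1 lower, where 4.78% and 4.71% of all probe sets tested were so.

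Of 7 other symbols listed for the purine nucleotide cycle 3 had a probe set and 2, ADSL and ADSSL1, were tested. Both had higher means with corticosteroid, and neither passed after adjustment. ADSL, adenylosuccinate lyase, which releases AMP in the last step of the cycle, had a log2 level of 10.37, 10.36, 10.31 and 11.08 on corticosteroid replicates 1 to 4, against 10.11, 9.55, 9.42 and 10.32 on control replicates 1 to 4. Only control replicate 4 reached into the corticosteroid range. The log2 difference was 0.68 (SE 0.26, adjusted p = 0.482 in limma, exact two-sided permutation p = 0.0571). A second ADSL probe set differed by 0.88 (adjusted p = 0.479 in limma). Its corticosteroid arrays all lay above the controls, as for 3.05% of all probe sets tested. ADSSL1, the muscle adenylosuccinate synthase that feeds IMP back into the cycle, differed by 0.87 (SE 0.41, adjusted p = 0.539 in limma). This is its brighter probe set of 2, and the other was not compared with it. ADSS, the other synthase, was below the filter on dim probe sets, at 3.46 with corticosteroid and 3.47 in controls.

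Of the 7 tested genes listed under purine salvage and breakdown, 3 had higher means, and the other 4 lower ones. Without control replicate 2 the counts were 6 and 1, with HPRT1, ADK and PNP turning to small positive differences of 0.03 to 0.05. GMPR, guanosine monophosphate reductase, which turns GMP into IMP, had a log2 level of 8.37, 9.08, 9.63 and 10.23 on corticosteroid replicates 1 to 4, against 8.50, 7.42, 7.35 and 7.52 on control replicates 1 to 4. Only control replicate 1 lay above any corticosteroid array, namely replicate 1. The difference was 1.63 (SE 0.41, adjusted p = 0.469 in limma, exact two-sided permutation p = 0.0571), and its second probe set differed by 1.35. NT5C3A, counted in this list although it is a pyrimidine 5′-nucleotidase, differed by 1.06 (SE 0.45, adjusted p = 0.519 in limma). It differed by 0.59 without control replicate 2, its lowest array.

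Of the 4 phosphagen genes tested beside CKM and CKMT2, none had an unadjusted limma p under 0.05. In the phosphagen list GAMT, which makes creatine from guanidinoacetate, came closest, with a difference of 0.69 (SE 0.46, adjusted p = 0.618 in limma) and 0.36 without control replicate 2. The brain-type creatine kinase CKB had a log2 level of 5.903, 6.87, 6.62 and 6.44 on corticosteroid replicates 1 to 4, against 6.23, 9.04, 6.73 and 5.77 on control replicates 1 to 4. Its difference was -0.49 (SE 0.61), and 0.21 without control replicate 2, so that 1 array set its sign. CKB and the ubiquitous mitochondrial form CKMT1A had mean log2 levels of 6.46 and 6.05 on corticosteroid arrays and 6.94 and 6.01 on control arrays. Array medians ran from 5.864 to 5.965. CKMT1A differed by 0.04 (SE 0.16) and the creatine transporter SLC6A8 by -0.13 (SE 0.38), and both changed sign with single arrays left out (-0.035 to 0.15 for CKMT1A and -0.39 to 0.20 for SLC6A8). Without control replicate 2 the difference was -0.0073 for CKMT1A and -0.39 for SLC6A8. The only adenylate kinase tested was AK3, the GTP:AMP enzyme of the mitochondrial matrix, at -0.39 (SE 0.23, adjusted p = 0.584 in limma). It differed by -0.20 without corticosteroid replicate 1, its lowest array at 7.23. Its other tested probe set differed by -0.40.

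Of the AMP-activated kinase genes, which encode the sensor of a rising AMP level and its activator STK11, 6 of 8 had higher means and 0 had an unadjusted p under 0.05. The catalytic subunit PRKAA2 had the smallest p, with a difference of 0.71 (SE 0.39, adjusted p = 0.563 in limma), and it differed by 0.38 without corticosteroid replicate 4. For the carriers and pores that exchange ATP and ADP across the mitochondrial membranes, 3 of 6 means were higher, and 2 of 6 without control replicate 2. The muscle carrier SLC25A4, which works beside CKMT2, stood at 12.42 ± 0.19 with corticosteroid and 12.32 ± 0.31 in controls (SD, n = 4 each), a log2 difference of 0.10 (SE 0.17), and -0.038 without control replicate 2. SLC25A5 had the smallest p, with a difference of -1.07 (SE 0.59), and -0.38 without control replicate 2, where it reached 10.25.

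Among the other globins all 4 tested had lower means, the smallest difference being that of cytoglobin (CYGB) at -0.01, which was 0.09 without control replicate 2. HBM differed by -0.54, and by 0.03 without control replicate 3, where it reached 8.51. NGB differed by -0.06 (SE 0.13). HBB, the haemoglobin beta chain of red cells, had a log2 level of 7.74, 7.80, 7.67 and 7.06 on corticosteroid replicates 1 to 4, against 8.005, 7.83, 8.34 and 8.28 on control replicates 1 to 4. The corticosteroid arrays all lay below the controls, as for 2.51% of all probe sets tested. The log2 difference was -0.55 (SE 0.22, adjusted p = 0.483 in limma, exact two-sided permutation p = 0.0286), and -0.38 without corticosteroid replicate 4. HBB is a red cell product, and the amount of blood in the samples was not tested.

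**Figure D4:**
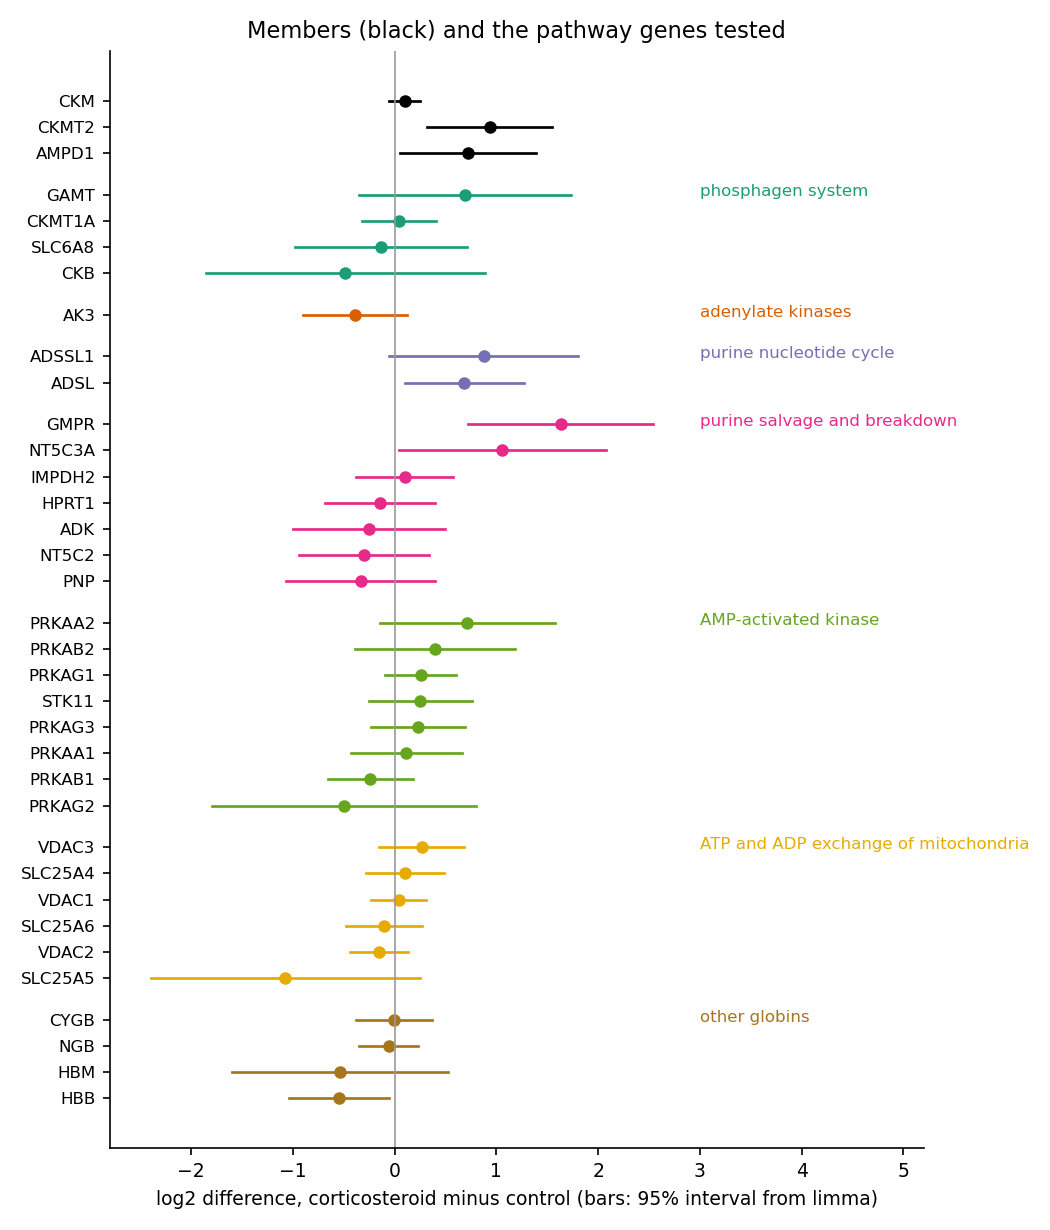
Log2 difference, corticosteroid minus control, with its 95% interval from limma for CKM, CKMT2 and AMPD1 (black) and the 32 pathway genes tested, coloured by list. The intervals of CKMT2, AMPD1, ADSL, GMPR and NT5C3A lie above 0 and that of HBB below 0 before adjustment, and no gene shown passed after adjustment over all probe sets.

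The arrays were also searched for genes with the most similar course. Over the 8 arrays and 5403 other genes, the levels most like CKMT2 by Pearson's r were those of ENDOG, a mitochondrial nuclease (r = 0.98, rho = 1), PRPSAP1 (r = 0.98, rho = 0.976) and RDH14 (r = 0.98, rho = 1). Most like AMPD1 were PGM1, phosphoglucomutase (r = 0.98, rho = 0.976), TPM1, a tropomyosin (r = 0.98, rho = 0.905), and C13H21orf59 (r = 0.98, rho = 0.976). Most like CKM were TMEM222 (r = 0.98, rho = 0.929), INTS13 (r = 0.96, rho = 0.905) and MTFMT (r = 0.96, rho = 0.929). These were picked as the highest of many values over few arrays, so no p is given. Without the 2 arrays farthest from the median of the gene searched for, r was 0.95 or more for the 3 genes like CKMT2 and 0.87 or more for those like AMPD1. For those like CKM it was 0.83 or more.

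The direction was the same for CKMT2, AMPD1 and CKM whichever array was left out. With each array left out in turn, the log2 difference ran from 0.74 to 1.09 for CKMT2, from 0.50 to 0.95 for AMPD1 and from 0.07 to 0.12 for CKM. The largest adjusted limma p-values among these were 0.771 for CKMT2, 0.773 for AMPD1 and 0.815 for CKM.

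**Figure D5:**
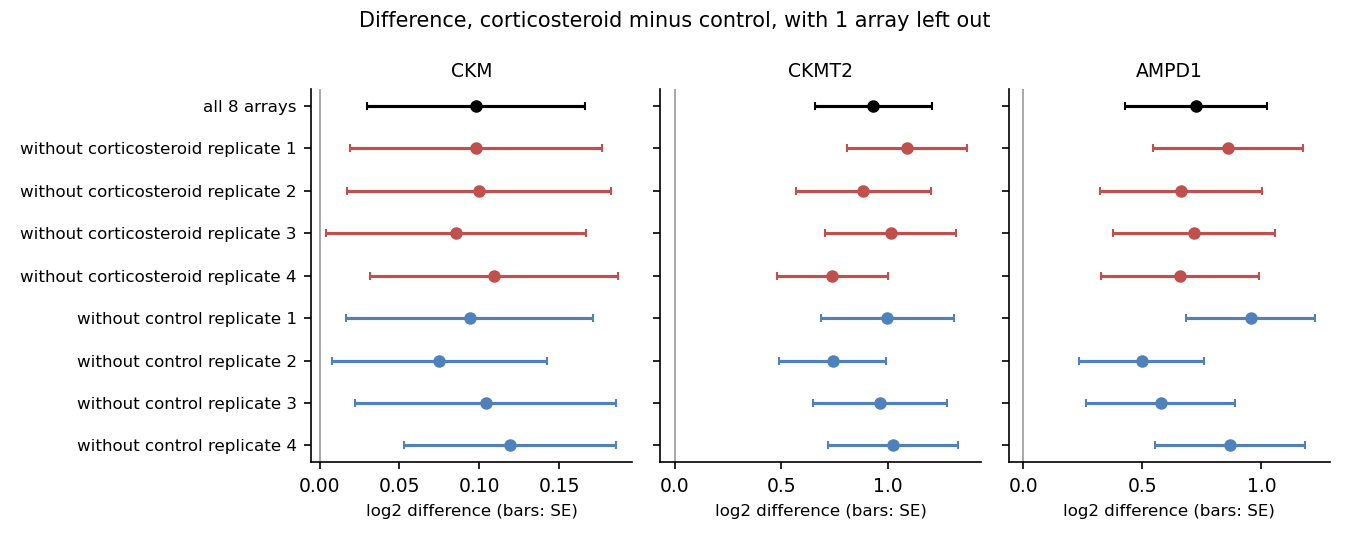
Log2 difference, corticosteroid minus control, with its limma SE for CKM, CKMT2 and AMPD1 with all 8 arrays (black) and with each array left out (red: a corticosteroid array left out, blue: a control array left out). Each panel has its own axis. All values lie above 0, and AMPD1 ranges most, from 0.50 without control replicate 2 to 0.95 without control replicate 1.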

How the data were processed

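RNA of 8 muscle samples was hybridised to 1-colour arrays, 1 array per sample. The deposited values are log2 levels per probe set, and MAS5 is the only tool named, per the submitters' processing notes. The sources used here give no account of scaling between arrays. Array medians ran from 5.864 to 5.965, so nothing more was scaled. Depth has no counterpart on arrays, and the number of arrays limits the precision. Groups came from the sample titles.

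Probe sets were named from the platform annotation (10069 with 1 symbol, 198 with several, 13732 with none), and 9961 were found in the current RefSeq gene table (Sscrofa11.1). A gene is represented by its brightest probe set. Row order of the corticosteroid columns was restored by the text of the IDs (0 ties). In 1529 same-gene pairs of probe sets over 50 rows apart, with 1 or both in moved rows, corticosteroid levels correlated with r = 0.306 after re-assignment and 0.042 as deposited.

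The group comparison used R 4.3.3 and limma 3.58.1 (lmFit, eBayes with intensity trend, Benjamini-Hochberg at 0.05) over the 14361 probe sets above the 40th percentile of mean level (log2 5.27), 64 reporter probe sets left out. The fit was tested on simulated data. Single values and within-array differences used exact permutation over the 70 splits. Of the planned 10 pairs of genes 3 could be formed. Genes named are the members, each list's genes at unadjusted p under 0.05 or its gene of smallest p, and the 3 most similar genes per member. The remaining listed genes named beside them were chosen after their values were seen. The members and lists were chosen with earlier results of these data known. Alternatives covered row order, a replicate block, normalization, filters, 16 added before log2, variance models, array weights, averaged probe sets and arrays left out.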

Additional observations from a re-analysis of the deposited data

Results flagged for a closer look

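In 42 groups of 4 arrays (CKM, CKMT2, AMPD1, 8 pathway genes and 10 marker lists), 5 had 1 array far from the other 3, by Dixon's ratio of gap to range. Chance flags about 1 in 20 groups. None of the 5 was a value of CKM, CKMT2 or AMPD1.

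ADSL was far higher on corticosteroid replicate 4 (11.08) than on the other 3 corticosteroid arrays. HBB was far lower on that array (7.06) than on the others of its group. On control replicate 2, NT5C3A was far lower (7.56) and SLC25A5 far higher (10.25) than on the other controls. GMPR was far higher on control replicate 1 (8.50) than on the other controls.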

How the results depend on the processing

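Apart from the row order, the 3 main genes and the 8 pathway genes chosen by p kept their direction and had an adjusted p above 0.05 in all 215 values from 20 alternatives to the limma fit. With the rows as deposited, the fit called 5454 probe sets (6101 at an unadjusted p under 0.05), and the log2 difference was -6.26 for CKM, -0.90 for CKMT2, -3.68 for GAMT and -3.45 for NT5C3A. It then differed by -1.62 for CKMT2 minus AMPD1 and 6.98 for AMPD1 minus CKM. The construction of that alternative, other rows in the corticosteroid columns, makes this difference. Probe sets at an unadjusted p under 0.05 numbered 1363 in the fit described, 828 among unmoved rows only and 2160 with no filter. With 1 array left out they ran from 894 (without corticosteroid replicate 4) to 1777, with 903 without control replicate 3, and calls ran from 0 to 1, the call, without control replicate 3, being AKR1CL1, named after its value was seen. With 1 array left out, CKMT2 minus AMPD1 ran from 0.04 to 0.39, CKMT2 minus CKM from 0.63 to 0.99 and AMPD1 minus CKM from 0.42 to 0.86. The exact two-sided permutation p of CKMT2 minus CKM was 0.0286 without any 1 of the corticosteroid arrays, the smallest that 3 arrays against 4 allow, and 0.0571 without any 1 of the control arrays. In runs with 1 array left out that were chosen after seeing the data, differences ran from -0.88 to 0.21 for CKB, -0.035 to 0.15 for CKMT1A, -0.39 to 0.20 for SLC6A8, -0.038 to 0.18 for SLC25A4 and -0.11 to 0.091 for CYGB, all of which changed sign, and from 0.59 to 1.15 for ADSSL1. The slow-fibre score difference ran from -1.35 to -0.86 (exact permutation p from 0.0286, without control replicate 4, to 0.0857) and the fast-fibre one from 0.25, without control replicate 2, to 0.61. No pairing of the arrays by replicate number was seen. Deviations of same-numbered arrays correlated with r = -0.25, 0.11, 0.10 and 0.05, and those of differently numbered arrays with r from -0.31 to 0.27. With the replicate block the CKMT2 difference was 0.93 (adjusted p = 0.532 in limma), and 0 probe sets were called. Leaving out control array 2 and corticosteroid array 4 together gave 0.55 for CKMT2, 0.43 for AMPD1 and 0.09 for CKM.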
